A study of Homo sapiens with 7 samples.

Results

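The genes described here are the homeobox oncogenes of T-cell acute lymphoblastic leukemia (T-ALL): TLX1, TLX3, NKX2-1, NKX2-5 and HHEX. They are 5 of 19974 protein-coding genes on chromosomes 1 to 22 and X, chosen by name. Each gene was taken with 100 kb on each side of its RefSeq span (hg38), and every deposited interval lying wholly in such a window was kept. Of 180466 intervals in 4 lists, 62 lay in the 5 windows. The lists come from chromatin immunoprecipitation and sequencing with an antibody to RUNX2 (D1H7), a Runt-domain transcription factor, and with an antibody to H3K27ac (ab4729), a histone mark found at active promoters and enhancers. Both antibodies were used in 2 T-ALL lines. KARPAS-45 carries a KMT2A rearrangement and was grown with 20% serum, and PER-117 was grown with 10% serum. All cells were crosslinked for 10 min with 1.1% formaldehyde, and none received a treatment. There was 1 library per line and antibody, and each group is a single cell line, so no replicate error and no test between the lines can be given. Of the 7 samples, 3 were inputs and were not analysed here. PER-117 had a separate input labelled for H3K27ac, and KARPAS-45 did not.

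Homeobox genes encode DNA-binding proteins that set cell identity in the embryo. Normal T cells keep the TLX and NKX2 genes silent, and in T-ALL chromosome rearrangements place TLX1, TLX3, NKX2-1 or NKX2-5 beside T-cell receptor or BCL11B regulatory sequence. HHEX differs from the others because it is active in early blood progenitors, where it is needed for lymphoid development, and it is a known target of LMO2 in T-ALL. A rearranged member is then expressed in the leukemic cells, and in animal models such expression blocks thymocyte development.

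No member carried H3K27ac on its gene span or within 1 kb of a gene end in either line, and a single member, TLX1, carried RUNX2 there, in KARPAS-45. Over all protein-coding genes, H3K27ac within 1 kb of a gene end was present at 61.0% in KARPAS-45 versus 55.5% in PER-117, and RUNX2 at 48.3% and 32.5%. For the gene span the shares were 66.8% and 61.8% for H3K27ac, and 58.9% and 40.2% for RUNX2. The members are short, from 2892 bp (TLX3) to 6490 bp (TLX1). Among the 5658 protein-coding genes with a span of up to 10 kb, gene-end H3K27ac stood at 50.2% and 45.6%, and gene-end RUNX2 at 37.8% and 25.8%. The windows as a whole were not empty: 4 of 5 held RUNX2 and H3K27ac in both lines. Among all protein-coding genes, a window made the same way held RUNX2 at 90.4% in KARPAS-45 versus 82.3% in PER-117, and H3K27ac at 87.8% and 87.0%, so 4 of 5 is close to the background.

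**Figure D1:**
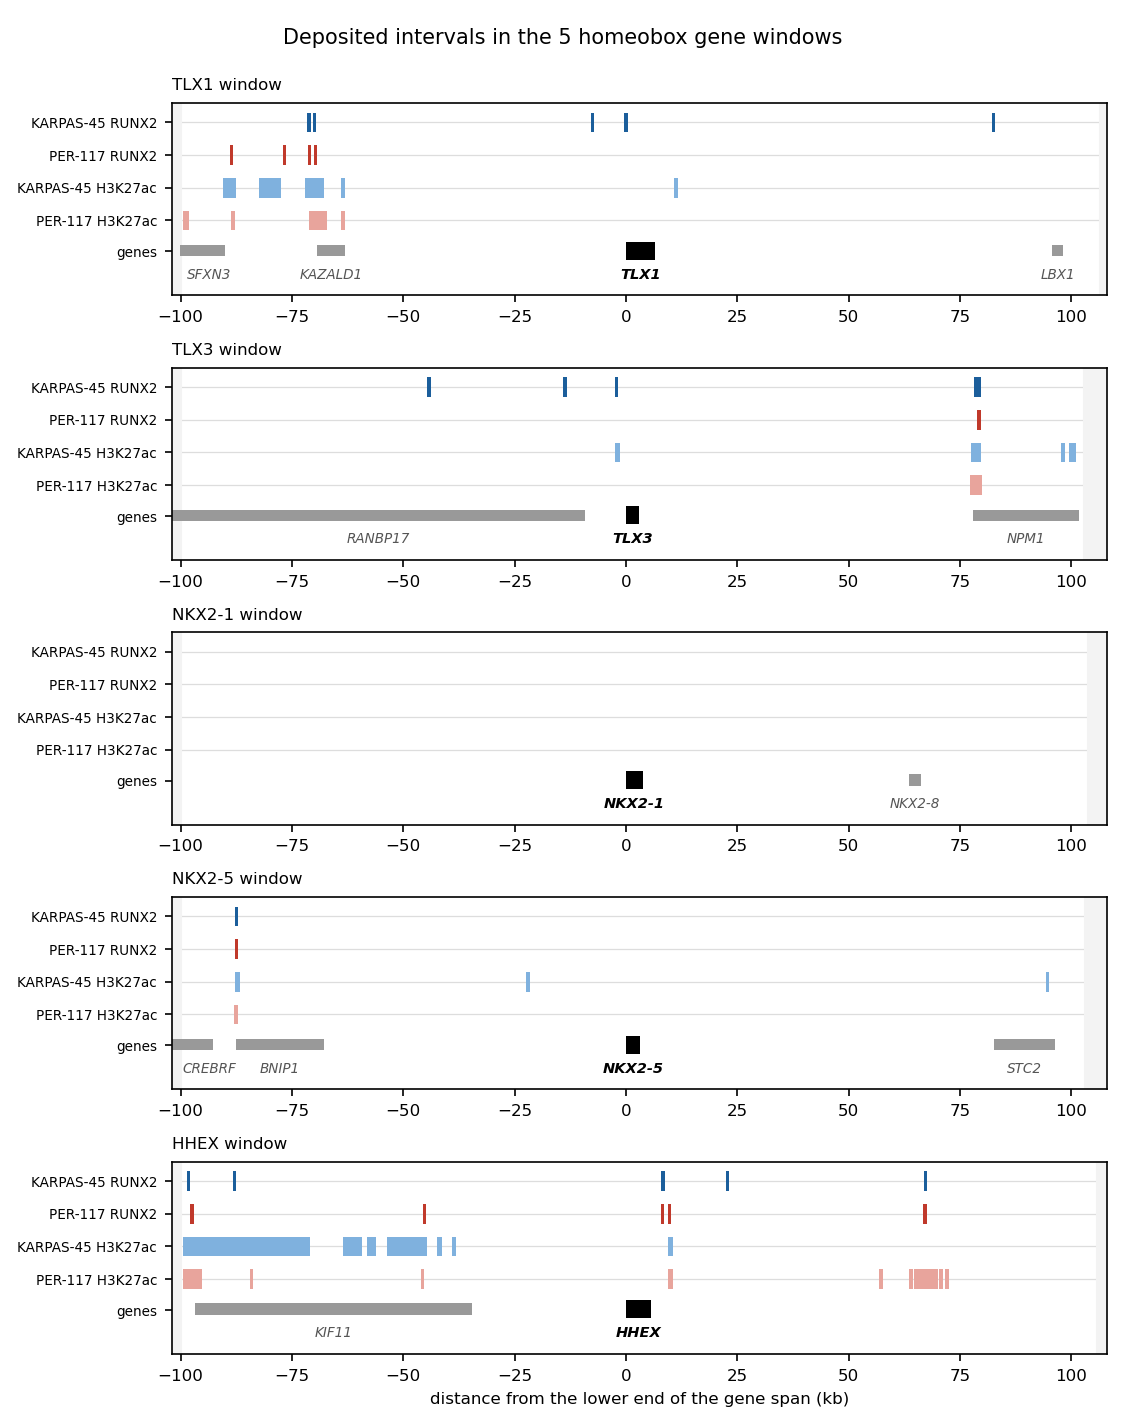
Each panel is the window of 1 gene, with distance from the lower end of its span in kb on the x axis. Rows show the RUNX2 and H3K27ac intervals of each line, and the bottom row shows the gene (black) and its protein-coding neighbours (grey). Very narrow intervals are drawn 0.8 kb wide so that they can be seen, and grey margins lie outside the window. The NKX2-1 panel is empty. In the other panels 6 of 16 RUNX2 peaks in KARPAS-45 and 3 of 11 in PER-117 overlap a protein-coding neighbour. For H3K27ac regions these counts are 14 of 19 and 9 of 16.

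The 5 windows held 16 RUNX2 peaks in KARPAS-45 versus 11 in PER-117. In KARPAS-45, TLX1, TLX3 and HHEX had 5 peaks each, NKX2-5 had 1 and NKX2-1 had 0. In PER-117, HHEX had 5, TLX1 4, TLX3 and NKX2-5 1 each, and NKX2-1 had 0. The median over members was 5 and 1, against 6 and 3 over all protein-coding genes. For H3K27ac, HHEX was highest with 7 regions in KARPAS-45 versus 9 in PER-117, followed by TLX1 with 5 and 5, TLX3 with 4 and 1, NKX2-5 with 3 and 1, and NKX2-1 with 0 and 0. The median over members was 4 and 1, against 10 and 7 over all genes. Over genes with a span of up to 10 kb the H3K27ac medians were 8 and 6, and the RUNX2 medians stayed at 6 and 3. With 1 library each, neighbours in these orders that differ by 1 or 2 intervals cannot be ranked. The H3K27ac lists reach unlike floors, with a lowest −log10 q of 0.431 in KARPAS-45 against 1.01 in PER-117. KARPAS-45 regions below that PER-117 floor lay in the windows of TLX1 (0.601), NKX2-5 (0.782) and HHEX (0.829 and 0.860). The H3K27ac counts are therefore not like for like between the lines.

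**Figure D2:**
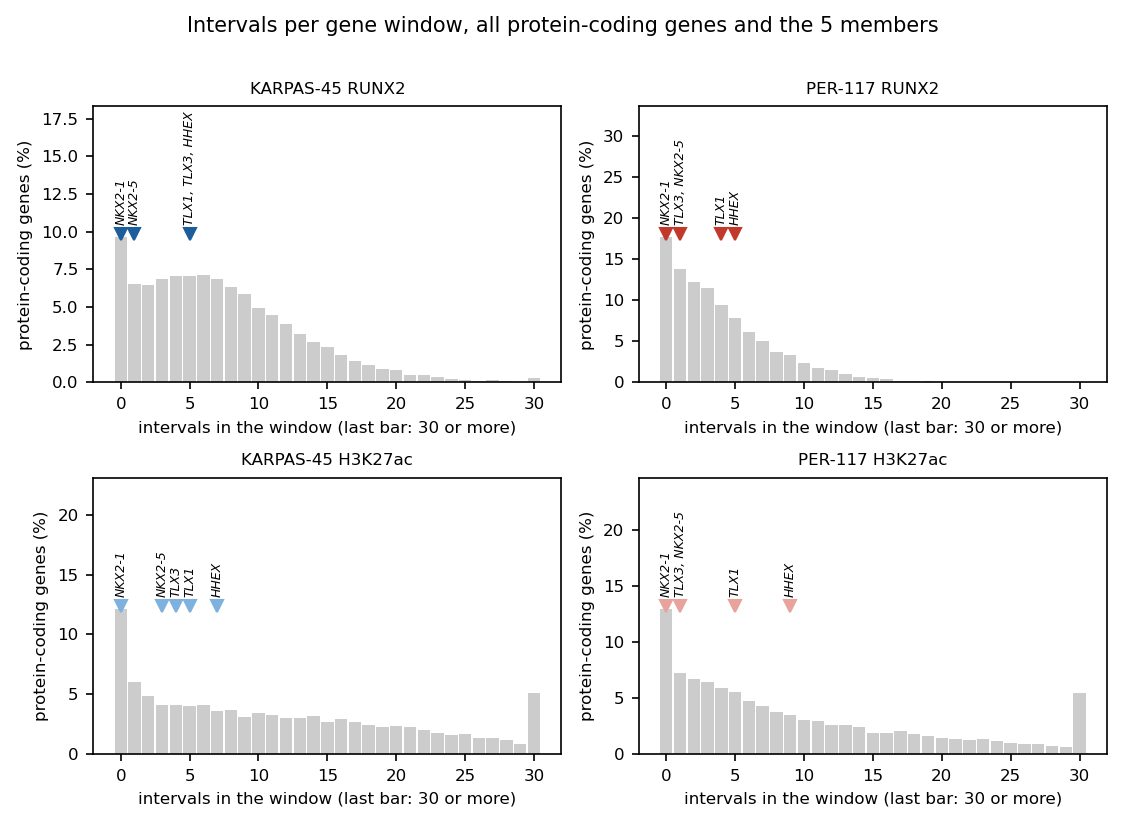
Grey bars give the percentage of protein-coding genes (y axis) by the number of intervals in the gene's window (x axis, with 30 or more pooled in the last bar), for each list. Triangles mark the 5 genes. In the KARPAS-45 RUNX2 panel 3 of them sit at 5, and NKX2-1 sits at 0 in every panel.

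Upstream of TLX3 lay the RUNX2 site with the highest fold enrichment of the 16 in the KARPAS-45 windows, and PER-117 had no peak there. TLX3 is a homeobox factor of hindbrain neurons that is switched on in childhood T-ALL by joining to BCL11B. The gene lies on chromosome 5 (171309248 to 171312139, forward strand). The site, on chromosome 5 from 171306755 to 171307452, lay 1796 bp upstream of the gene start and overlapped no annotated gene. It had a fold enrichment, the authors' ratio of ChIP signal to background, of 25.1. Fold enrichments rank peaks within a list only. Its main summit lay at 1983 bp and a second, weaker summit (fold enrichment 6.32) at 2361 bp upstream. By fold enrichment it ranked 1775 of 42911 KARPAS-45 peaks, and the PER-117 peak of highest fold enrichment in the windows, near KAZALD1 beside TLX1, ranked 663 of 21027. Of all protein-coding genes, 64.9% had a KARPAS-45 peak on the gene or within 2500 bp, and 5.99% had a peak there at least as strong as this. The nearest PER-117 RUNX2 peak to TLX3 lay 76035 bp away.

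The TLX3 site was also acetylated in KARPAS-45. An H3K27ac region of 1129 bp, from 171306851 to 171307979, covered both summits with a fold enrichment of 6.12 and a −log10 q of 27.6. It had the highest fold enrichment of the 19 H3K27ac regions in the KARPAS-45 windows, ranked 9922 of 63265 by that measure, and stopped 1269 bp short of the gene start. The region was kept at a −log10 q of 10 or more, but its width is below the list median of 1270 bp and it was not among the 10000 regions of highest −log10 q. The nearest PER-117 H3K27ac region lay 74264 bp from TLX3. The pattern is not rare in the lists: of the 1776 KARPAS-45 RUNX2 peaks at least this strong, 438 (24.7%) had no PER-117 partner and 220 (12.4%) had none and were acetylated in KARPAS-45 alone. The 2 remaining upstream RUNX2 peaks of KARPAS-45 lay inside RANBP17, a nuclear transport receptor gene upstream of TLX3. Their fold enrichments were 4.73 and 4.30, at 44174 and 13706 bp from the TLX3 start, and neither was acetylated.

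At the far end of the TLX3 window both lines marked NPM1, which encodes an abundant nucleolar protein and is often mutated in myeloid leukemia. The start of NPM1 lay inside an H3K27ac region of 2168 bp in KARPAS-45 (fold enrichment 2.45) and of 2805 bp for PER-117 (9.90). Just inside NPM1, 1236 bp from its lower end in KARPAS-45 or 1058 bp in PER-117, lay the 1 shared RUNX2 peak of the window, with fold enrichments of 3.72 and 6.40. KARPAS-45 had a further peak of 4.06 in the promoter of a second annotated NPM1 start. In PER-117 both intervals of the TLX3 window lay at NPM1, while in KARPAS-45 NPM1 held 2 of 5 RUNX2 peaks and 3 of 4 H3K27ac regions.

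TLX1 was the one member with RUNX2 at its own start. TLX1 is a homeobox factor needed to form the spleen, and it is activated in T-ALL by joining to T-cell receptor genes. It lies on chromosome 10 (101131300 to 101137789, forward strand). In KARPAS-45 a RUNX2 peak of 185 bp (101131186 to 101131370) spanned the gene start, with its summit 24 bp upstream. Its fold enrichment was 6.41, close to the list median of 6.36, and its −log10 q was 8.37, so the call is lost at a threshold of 10. The nearest PER-117 RUNX2 peak lay 69492 bp from TLX1. The TLX1 start was not acetylated in either line. Of the 9653 genes with gene-end RUNX2 in KARPAS-45, 422 (4.37%) likewise had no gene-end H3K27ac. A weaker peak of KARPAS-45, with 6.005, lay 7510 bp upstream in TLX1NB, a noncoding gene that overlaps TLX1. The sole H3K27ac region near TLX1 was one of 212 bp in KARPAS-45, 4587 bp beyond the gene's far end, with a fold enrichment of 1.11 and a −log10 q of 0.601, ranked 62105 of 63265 by fold enrichment.

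**Figure D3:**
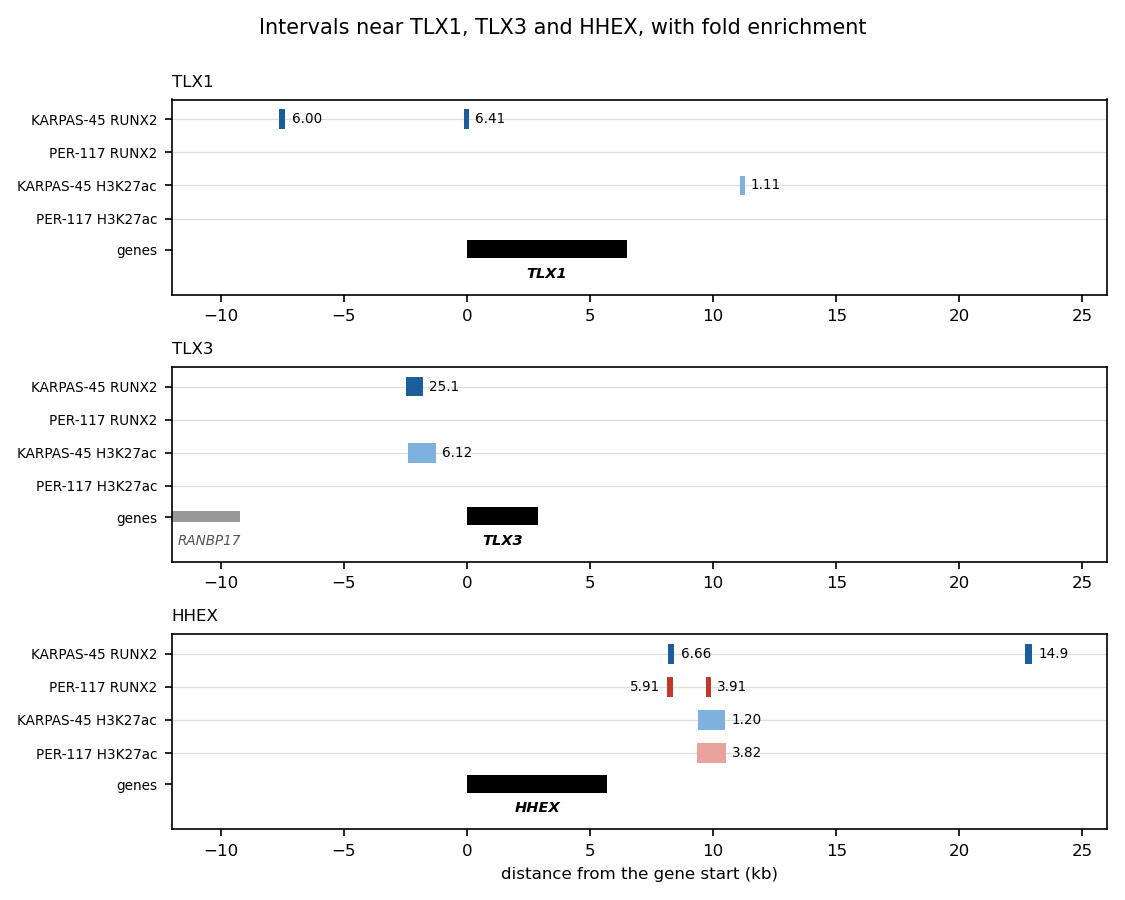
Intervals from 12 kb before to 26 kb after the start of TLX1, TLX3 and HHEX, to scale in kb, with each interval's fold enrichment beside it. RUNX2 sits at the start of TLX1 and upstream of TLX3 in KARPAS-45 (6.41 and 25.1), and downstream of HHEX in both lines.

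RUNX2 peaks reached 6 RefSeq promoters in the windows. The promoter of TLX1 is shown because it carries the one call at a member's start, and those of NPM1 and BNIP1 because they are the covered promoters of the TLX3 and NKX2-5 windows. Each runs 5′ to 3′ on the gene's strand from 250 bases before to 50 bases after the start (RefSeq, GRCh38.p14), and capitals mark the bases inside a RUNX2 peak of either line.
TLX1, forward strand, chr10:101131050-101131349: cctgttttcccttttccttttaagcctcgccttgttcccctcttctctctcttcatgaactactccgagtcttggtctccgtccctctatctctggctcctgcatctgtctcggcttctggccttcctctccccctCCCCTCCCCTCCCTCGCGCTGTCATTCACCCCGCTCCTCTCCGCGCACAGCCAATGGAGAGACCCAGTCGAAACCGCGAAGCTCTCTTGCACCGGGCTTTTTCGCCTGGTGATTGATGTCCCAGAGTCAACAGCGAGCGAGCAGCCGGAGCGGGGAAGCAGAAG
NPM1, forward strand, chr5:171387599-171387898: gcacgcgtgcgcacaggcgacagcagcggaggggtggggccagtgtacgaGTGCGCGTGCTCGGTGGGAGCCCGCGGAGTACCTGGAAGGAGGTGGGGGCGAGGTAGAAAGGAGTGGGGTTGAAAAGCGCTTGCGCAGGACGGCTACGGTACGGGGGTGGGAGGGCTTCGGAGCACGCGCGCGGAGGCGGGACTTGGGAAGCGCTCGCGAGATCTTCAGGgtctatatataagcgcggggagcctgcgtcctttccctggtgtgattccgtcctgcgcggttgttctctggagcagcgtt
BNIP1, forward strand, chr5:173144281-173144580: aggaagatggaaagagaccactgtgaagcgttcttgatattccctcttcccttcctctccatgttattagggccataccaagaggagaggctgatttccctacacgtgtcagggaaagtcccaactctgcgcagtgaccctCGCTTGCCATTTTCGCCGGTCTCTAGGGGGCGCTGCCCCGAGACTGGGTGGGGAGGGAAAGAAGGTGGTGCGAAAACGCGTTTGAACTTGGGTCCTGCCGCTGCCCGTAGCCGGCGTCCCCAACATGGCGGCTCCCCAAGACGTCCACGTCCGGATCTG
The peak covered 164 of the 300 bases at TLX1 and 170 at NPM1, in KARPAS-45 in both cases. At BNIP1, peaks covered 152 bases in KARPAS-45 versus 159 in PER-117. The 3 covered promoters not shown all lie in the TLX1 window. That of TLX1NB, on the other strand at the TLX1 start, had 185 bases in the same KARPAS-45 peak, that of LOC107984262 had 62 bases in a KARPAS-45 peak and that of KAZALD1 had 70 in a PER-117 peak. The core RUNX letters TGTGGT and TGCGGT, which do not overlap each other, were searched on both strands and occurred in none of these 6 promoters. Of 34961 RefSeq promoters of the same length, 19.6% held either of them (13.1% TGTGGT and 7.30% TGCGGT). The promoters of TLX3, HHEX and NKX2-1 overlapped no interval of any list. NKX2-5 had no entry.

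In each line the RUNX2 peak of highest fold enrichment in the TLX1 window lay near KAZALD1, the gene of a secreted protein, about 70 kb upstream. Both lines had RUNX2 just before KAZALD1, with summits 69784 bp from the TLX1 start in KARPAS-45 versus 69781 bp in PER-117, and fold enrichments of 16.7 and 20.0. A second shared peak, in the noncoding gene LOC107984262, had 17.7 in KARPAS-45 versus 7.68 in PER-117. All 4 summits were acetylated in both lines, in a KARPAS-45 region of 4483 bp (fold enrichment 1.54) and a PER-117 region of 3079 bp (12.2). The PER-117 region had the highest fold enrichment of the H3K27ac calls in the windows of that line. PER-117 had a further strong RUNX2 peak, 17.9, at 76746 bp from TLX1, with no partner in KARPAS-45 and no H3K27ac in either line. A KARPAS-45 H3K27ac region of 4902 bp ended shortly before that peak. Near SFXN3, a mitochondrial carrier gene, PER-117 had a RUNX2 peak of 3.71 that was acetylated in both lines. On the downstream side, towards the muscle precursor homeobox gene LBX1, the window held 1 RUNX2 peak, of 4.51 in KARPAS-45, and no H3K27ac beyond the weak region named above.

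HHEX, the blood-active member, was flanked downstream by RUNX2 sites in both lines, and H3K27ac farther downstream differed between them. HHEX lies on chromosome 10 (92689955 to 92695647, forward strand). Beyond its far end, at 2486 bp in KARPAS-45 or 2418 bp in PER-117, lay a shared RUNX2 peak with fold enrichments of 6.66 and 5.91. Neither summit was in an H3K27ac region. About 1 kb further on, both lines had an H3K27ac region, 1114 bp wide with 1.20 in KARPAS-45 (−log10 q of 0.860) and 1159 bp wide with 3.82 in PER-117 (−log10 q of 5.65). In PER-117 a second RUNX2 peak, of 3.91, lay inside it. These were the member's nearest H3K27ac regions in both lines, at 3673 and 3664 bp.

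Farther downstream of HHEX the lines parted. At 67280 bp from the HHEX start PER-117 had a RUNX2 peak with a fold enrichment of 6.74 (chromosome 10, 92756889 to 92757410) inside an H3K27ac region of 5443 bp with 6.98. It was the widest PER-117 H3K27ac region of the 5 windows. Another 4 narrower PER-117 regions, of 239 to 707 bp, flanked it. KARPAS-45 had RUNX2 at the same place, 67285 bp from the start, with 3.71, and no H3K27ac region anywhere in this stretch. Of the 13383 PER-117 RUNX2 peaks with a KARPAS-45 partner, 997 (7.45%) were likewise acetylated in PER-117 alone. KARPAS-45 in turn had a peak of 14.9 at 22817 bp from the start (92712619 to 92712925), with no partner in PER-117 and no H3K27ac in either line. Of all KARPAS-45 peaks, of any strength, 26.5% had no partner and no H3K27ac in either line. This peak ranked 5489 of 42911 by fold enrichment, and the share among peaks at least as strong was not computed. The farthest downstream PER-117 H3K27ac region of the window lay 66183 bp from HHEX and 64696 bp from the nearest end of EXOC6. Which gene these regions act on was not tested.

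Upstream of HHEX the H3K27ac covered KIF11, which encodes a mitotic kinesin. KARPAS-45 regions there included 28560 bp across the KIF11 start with a fold enrichment of 2.46, the widest interval of any window, and 8938 bp with 2.15 inside the gene. In PER-117 the region at the KIF11 start was 4309 bp wide with 7.46. In all, H3K27ac covered 46265 bp of the HHEX window in KARPAS-45 versus 13351 bp in PER-117. Regions were wider throughout the KARPAS-45 list, with a median of 1270 bp against 816 bp. On the HHEX side downstream of the gene the order was the other way, with 1 region in KARPAS-45 against 6 in PER-117. RUNX2 near KIF11 had fold enrichments of 5.21 and 4.47 in KARPAS-45 and 6.14 and 4.50 in PER-117, and none of these peaks was shared.

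**Figure D4:**
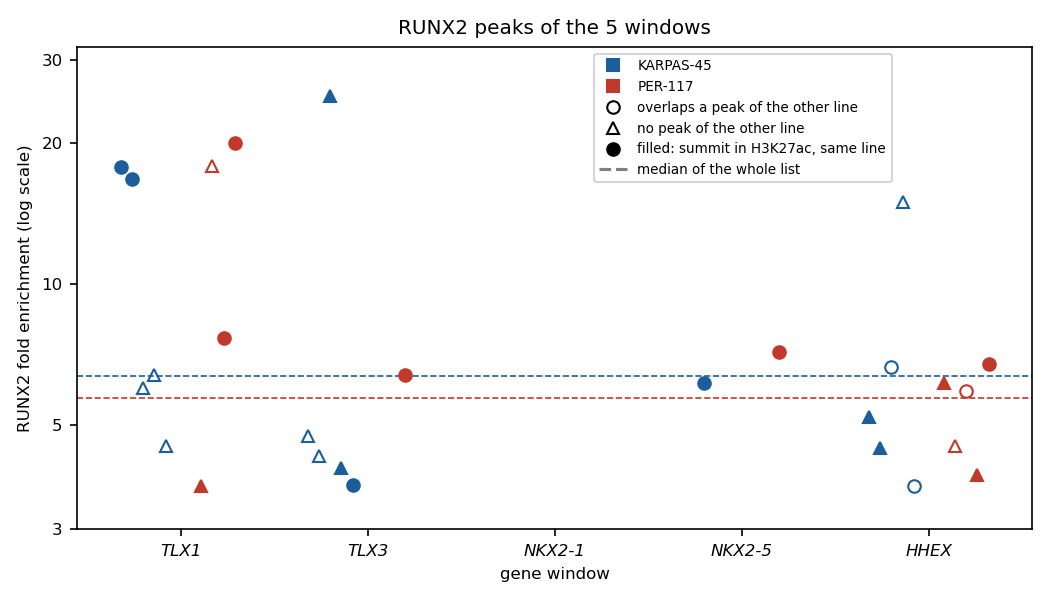
Fold enrichment (log scale) of every RUNX2 peak in the windows, by gene and line. Circles overlap a peak of the other line, triangles do not, filled symbols have the summit in H3K27ac of the same line, and dashed lines are the medians of the whole lists (6.36 in KARPAS-45 versus 5.72 in PER-117). The highest point is the TLX3 site of KARPAS-45 at 25.1.

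NKX2-5, the homeobox factor of heart muscle, had no RUNX2 peak within 87 kb in either line. The gene lies on chromosome 5 (173232109 to 173235206). The sole RUNX2 peak of its window lay at the start of BNIP1, which encodes a membrane fusion protein of the endoplasmic reticulum, and was shared by the lines. Its fold enrichment was 6.16 in KARPAS-45 versus 7.15 in PER-117, and the gaps to NKX2-5 were 87233 and 87186 bp. H3K27ac covered the same promoter in both lines, with 2.17 over 1314 bp in KARPAS-45 and 4.70 over 929 bp in PER-117. That was the whole of the PER-117 signal in the window. KARPAS-45 had 2 more H3K27ac regions, 386 bp wide with 1.48 at a gap of 21747 bp from NKX2-5, and 282 bp wide with 1.13 inside STC2, a secreted hormone gene. Their −log10 q values were 1.72 and 0.782.

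NKX2-1, the homeobox factor of thyroid, lung and forebrain, had an empty window in all 4 lists. It lies on chromosome 14 (36516397 to 36520232, reverse strand) beside NKX2-8, a related homeobox gene. The nearest H3K27ac regions lay 195379 bp away in KARPAS-45 versus 195237 bp in PER-117, both at the end of MBIP, a subunit of a histone acetyltransferase complex. The nearest RUNX2 peak was at MBIP too in KARPAS-45, at 195443 bp, and in PER-117 it lay 689932 bp away at BRMS1L. An empty window in all 4 lists was found for 1158 protein-coding genes (5.80%), and for 10.3% of those with a span of up to 10 kb. The lists carry no read depth, so an empty window means that nothing was called there at an unknown depth.

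Across the windows, RUNX2 peaks were shared and acetylated at rates whose intervals include those of the whole lists. Of the 16 KARPAS-45 peaks 6 (37.5%, exact 95% binomial interval 15.2 to 64.6) overlapped a PER-117 peak, against 31.2% of the list. Of the 11 PER-117 peaks 6 (54.5%, 23.4 to 83.3) had a KARPAS-45 partner, against 63.6%. The summit lay in H3K27ac of the same line for 8 of 16 in KARPAS-45 (50%, 24.7 to 75.3, list 65.2%) and 8 of 11 in PER-117 (72.7%, 39.0 to 94.0, list 75.6%). These intervals cover counting error only. The acetylated share of the KARPAS-45 peaks fell outside its interval with 3 stricter lists and with a narrower window. It was 16.7% (1 of 6) with a −log10 q of 10 or more, 12.5% (2 of 16) with KARPAS-45 H3K27ac at the covered length of PER-117, 0% (0 of 3) among the highest entries of each list and 14.3% (1 of 7) within 50 kb. Within 50 kb the PER-117 share was 33.3% (1 of 3). The 3 stricter lists in which the KARPAS-45 share fell left 1, 2 and 0 KARPAS-45 H3K27ac regions in the windows, from 19. With the wider 50% of H3K27ac regions that share stayed inside its interval, at 43.75% (7 of 16). The whole-list share was not recomputed for these lists, so whether the fall is particular to the windows was not tested. Of the 6 shared pairs, 4 were acetylated in both lines and lay at or next to KAZALD1, LOC107984262, NPM1 and BNIP1, and the 2 others lay downstream of HHEX. The nearest protein-coding gene end was that of the member for 6 of 16 KARPAS-45 and 3 of 11 PER-117 RUNX2 peaks. The counts of pairs and of nearest ends were not set beside shares over other windows or the whole lists.

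Other homeobox genes and the known partner loci give the setting. Of 43 homeobox genes, which include NKX2-8 and LBX1 from the windows above, 11 had gene-end RUNX2 in KARPAS-45 versus 7 in PER-117, and 12 and 10 had gene-end H3K27ac, against 48.3%, 32.5%, 61.0% and 55.5% of all protein-coding genes. Their windows held a median of 3 and 2 RUNX2 peaks and of 2 and 3 H3K27ac regions, against 6, 3, 10 and 7 over all protein-coding genes. By the number of intervals in the 4 lists (Euclidean distance of log2 of 1 plus the count), the 2 homeobox genes most like TLX1 were DLX1 (0.49) and DLX2 (0.60). For TLX3 they were TGIF1 (0.94) and DLX5 (1.11), for NKX2-5 they were NKX2-3 (0.72) and DLX5 (1.23), and for HHEX they were PBX3 (0.68) and VENTX (0.81). NKX2-1 matched 5 of the 43 exactly, all with empty windows, among them DBX1 and NKX2-8. The NKX2-8 window overlaps that of NKX2-1, so that match is partly built in. The windows of DLX1 and DLX2 overlap each other and are not separate matches.

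Loci to which these oncogenes are joined in T-ALL, or that lie beside them, have longer spans than the members and differed widely. BCL11B, a factor of T-cell commitment and a partner of TLX3 and NKX2-5, held 8 RUNX2 peaks and 12 H3K27ac regions on its span in KARPAS-45, and 1 and 27 in PER-117. TRA, the T-cell receptor alpha locus, held 17 and 20 in KARPAS-45 and 15 and 47 in PER-117. TRD, the delta locus inside the TRA span, held 0 and 0 in KARPAS-45 and 1 and 1 in PER-117. TRB, the beta locus, held 22 and 18, and 8 and 21. CDK6, a cell cycle kinase gene recorded as a further partner of TLX3, held 15 and 4, and 6 and 51. RANBP17, next to TLX3, held 2 RUNX2 peaks in KARPAS-45 and no other interval. Of all 14 partner and cofactor genes, 8 had gene-end RUNX2 in KARPAS-45 versus 4 in PER-117, and 9 and 10 had gene-end H3K27ac. Over all protein-coding genes these 4 shares were the 48.3%, 32.5%, 61.0% and 55.5% given above. LMO2 and MEF2C had nothing on their spans in any of the 4 lists. These lists name genes only, and whether either line carries such a rearrangement was not tested.

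As a check of the label, gene-end H3K27ac was present at 8 of 8 T-lineage markers in each line and gene-end RUNX2 at 8 in KARPAS-45 versus 6 in PER-117. Of 10 markers of other cell types, gene-end RUNX2 was present at 0 in both lines. Gene-end H3K27ac was present at 2 of them in KARPAS-45 against 3 in PER-117.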

How the data were processed

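RUNX2 and H3K27ac ChIP-seq peak lists of KARPAS-45 and PER-117, 1 per library, were used as deposited. Per the submitters' processing notes the build was hg38, and MACS2 and STAR 2.4.2a are listed without roles or thresholds, and the input used is not given in the sources used here. The authors deposited per peak a display score, a fold enrichment (a linear ratio), a −log10 p and a −log10 q. The lowest deposited −log10 q was 0.431 and 1.01 for H3K27ac and 1.31 and 1.30 for RUNX2 (KARPAS-45, PER-117). Column 10 is a summit offset in the RUNX2 lists and 100 throughout in the H3K27ac lists, where it was not used. Read depth is unknown, and no precision beyond counting error can be given.

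RUNX2 lines with the same start and end were joined to 1 interval that keeps the summit of highest fold enrichment, leaving 42911 and 21027 peaks, with 63265 and 53263 H3K27ac regions, on chromosomes 1 to 22 and X. An interval counts for a window when wholly inside, for a gene span or gene end (within 1 kb of either end) when it overlaps by 1 bp or more. Shared means an overlap of 1 bp or more with the other line. Acetylated means that the summit lies inside an H3K27ac region. Genes and promoters came from RefSeq (GRCh38.p14), with strand taken from the promoter table. No genome or protein sequence was used here, so peak sequences away from promoters and protein comparisons are not shown. No test was possible with 1 library per line and antibody. All members were named, with every protein-coding neighbour in a window, the strongest RUNX2 peak and widest H3K27ac region per window, and the 2 most similar homeobox genes. NPM1, BNIP1 and KAZALD1 promoter calls, and single partner genes, were picked after their values were seen. The members and gene lists were chosen with earlier results of these data known. Some genes of the lists are not reported here by name. The overlap code was tested on simulated data. Alternatives were stricter lists, other flanks, gene-end windows and overlaps. Scripts ran in Python 3.11.15 with pandas 2.3.3, numpy 2.4.6, matplotlib 3.10.9 and scipy 1.17.1.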

Additional observations from a re-analysis of the deposited data

How the results depend on the processing

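No paired analysis was possible because there is 1 library per line and antibody and nothing was tested. Of 114 values under 14 alternative settings, 78 stayed within 1.5 times the count reported, or within the interval of the share, and 36 did not. Part of the 78 could not have moved. Settings that changed H3K27ac lists alone leave RUNX2 counts and sharing as they were. Counts of 0 cannot rise in shortened lists. The tally is therefore no measure of how stable the results are. The intervals in the 5 windows, in the order KARPAS-45 RUNX2, PER-117 RUNX2, KARPAS-45 H3K27ac and PER-117 H3K27ac, went from 16, 11, 19 and 16 to 6, 7, 1 and 5 with a −log10 q of 10 or more. They went to 3, 2, 0 and 5 with each list limited to the 5000 RUNX2 peaks of highest fold enrichment or the 10000 H3K27ac regions of highest −log10 q, to 7, 3, 6 and 2 with a flank of 50 kb, and to 31, 18, 45 and 28 with a flank of 200 kb. These follow from fewer intervals or from narrower or wider windows. With the wider 50% of H3K27ac regions, 10 and 8 regions were left. With KARPAS-45 H3K27ac shortened to equal covered length, widest first, 2 were left. Within 50 kb 14.3% of the KARPAS-45 RUNX2 peaks (1 of 7) were shared and 33.3% of the PER-117 peaks were acetylated in PER-117. The acetylated share of the KARPAS-45 peaks, 50%, became 16.7% with a −log10 q of 10 or more, 12.5% at equal covered length, 0% (0 of 3) in the lists limited to their highest entries and 14.3% (1 of 7) within 50 kb. With the wider 50% of H3K27ac regions it was 43.75% (7 of 16), inside the interval of the share. The share of the whole list was not recomputed for the stricter lists. Members with KARPAS-45 RUNX2 at a gene end or on the span went from 1 to 0 in both stricter lists, so the TLX1 call rests on peaks below a −log10 q of 10. With gene-end windows of 2.5 kb or 5 kb, 3 members (TLX1, TLX3 and HHEX) had RUNX2 in KARPAS-45 and 1 (HHEX) in PER-117. H3K27ac was then present at 1 member in KARPAS-45 (TLX3) with 2.5 kb. With 5 kb it was present at 3 in that line (TLX1, TLX3 and HHEX) against 1 in PER-117 (HHEX). The TLX1 and HHEX regions of KARPAS-45 had −log10 q values of 0.601 and 0.860, below the lowest of the PER-117 list, 1.01. The 3 against 1 is therefore not like for like. Of all protein-coding genes, 64.9% had a KARPAS-45 RUNX2 peak on the span or within 2.5 kb, and 67.9% within 5 kb. For PER-117 RUNX2 these shares were 47.6% and 50.3%. The matching H3K27ac shares were not computed. The TLX3 RUNX2 site of KARPAS-45 was kept in every stricter list. Its H3K27ac region was kept with a −log10 q of 10 or more, and not in the 10000 of highest −log10 q (it ranked 9922 by fold enrichment), the wider 50% or the list of equal covered length.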

Other observations

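Among the 43 other homeobox genes, the MEIS cofactors were marked in opposite lines. MEIS1, a cofactor of HOX proteins in leukemia, held 3 RUNX2 peaks and 17 H3K27ac regions on its span in KARPAS-45 and 0 of each in PER-117. MEIS2, its close relative, held 0 of each in KARPAS-45, and 2 RUNX2 peaks and 4 H3K27ac regions in PER-117. SATB1, a chromatin organiser of thymocytes, was marked in both lines, with 7 RUNX2 peaks and 10 H3K27ac regions in KARPAS-45 and 4 and 11 in PER-117. These genes were picked after their values were seen, and the lines were not tested against each other.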
